A study of Rattus norvegicus with 2 samples.

Results

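The genes described here encode the acid-sensing ion channels Asic1, Asic2, Asic3 and Asic4 and the proton-sensing receptors Gpr4, Gpr65 and Gpr132, 7 genes chosen by name as the proteins through which cells sense extracellular acid beside TRPV1. Of the 7, 5 were measured, with 9 probe sets in all, among 14217 measured genes. No probe set is named for Gpr65 or Gpr132 in the probe annotation used here, so neither is analysed here. The tissue was the rat dorsal root ganglion (DRG), which holds the cell bodies of sensory neurons (SNs). Tumor-side DRGs belonged to the right tibia, whose marrow had been inoculated with IP-B12, a rat pulmonary carcinoma line that destroys bone, and control-side DRGs belonged to the left tibia. DRGs of both sides were taken 14 days after inoculation, with 1 array for either side. The rats were 4-week-old female Sprague-Dawley rats, with no genetic change or further treatment described for either side. How many rats gave RNA to either array is not stated, and no injection of the left tibia is described, so that tumor and inoculation procedure cannot be told apart. A tumor-side and a control-side array give a single ratio for every gene, without replicate error and without a test.

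Acid-sensing ion channels (ASICs) are sodium channels of the degenerin family that open when the fluid outside the cell turns acidic. They work as trimers, and Asic1, Asic2 and Asic3 mix within a trimer. Asic3 is best known from SNs that innervate muscle, joint and bone, where it carries acid-evoked currents linked to pain. Gpr4, Gpr65 and Gpr132 are G protein-coupled receptors related to one another. Gpr4 is best known from endothelial cells, and the others from leukocytes.

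Asic3, Asic1 and Asic2, the channels measured well enough to compare, differed little between the sides. Asic3 had a signal of 1313 in tumor-side DRGs, against 1336 in control-side DRGs, a ratio of 0.982. Asic1 had 296 in tumor-side DRGs and 291 in control-side DRGs, a ratio of 1.02. Asic2 had 161 in tumor-side DRGs and 161 in control-side DRGs, a ratio of 0.997. These values are signals of the MAS 5.0 software, in which the brightness of a group of short probes against a transcript (a probe set) is summed up on a linear scale, and each gene is given by its brightest probe set. Signals of different genes come from different probes and say nothing of which channel is more abundant.

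**Figure D1:**
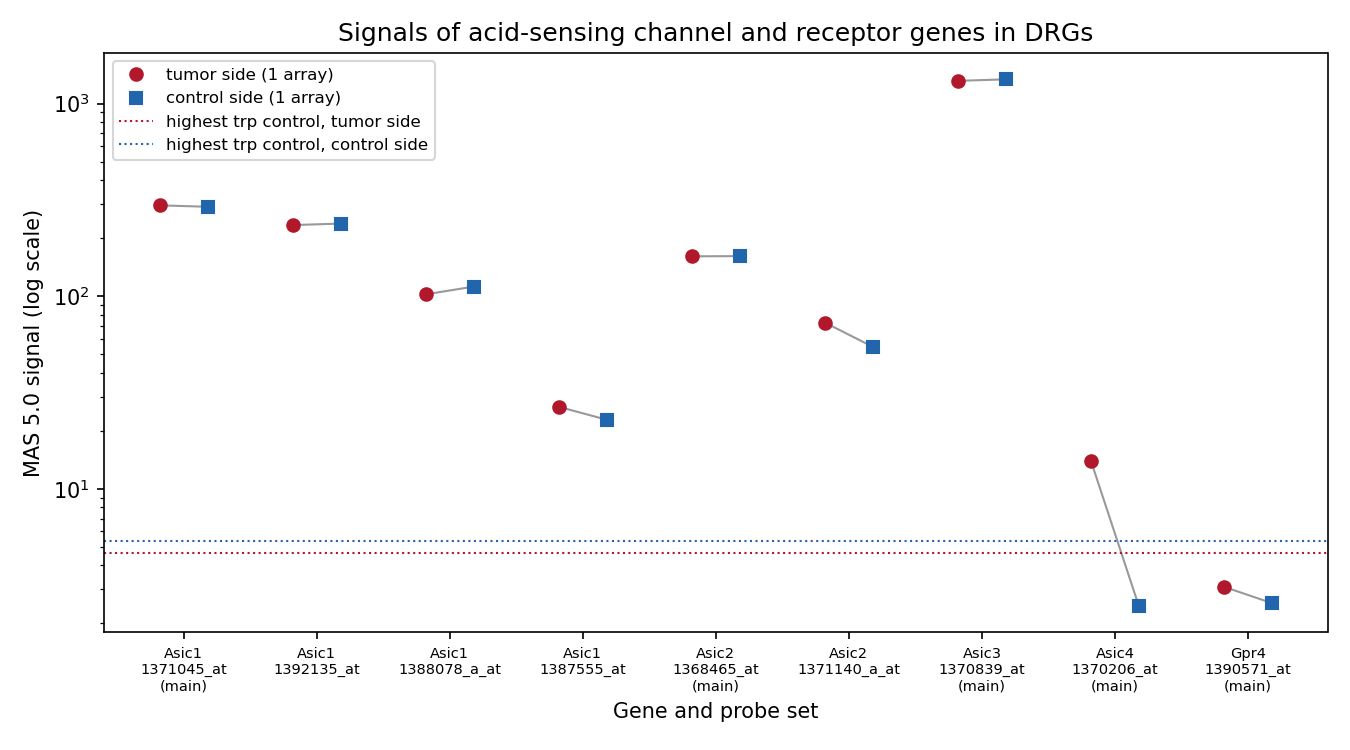
MAS 5.0 signals on a log scale for the 9 probe sets of Asic1, Asic2, Asic3, Asic4 and Gpr4 (horizontal axis), with the tumor side as red circles and the control side as blue squares, 1 array each, joined by a grey line. Dotted lines give the highest trp control signal of either array, 4.63 on the tumor side and 5.39 on the control side. The joined points of Asic3, Asic1 and the main probe set of Asic2 lie at nearly the same height, while the control-side point of Asic4 and both points of Gpr4 lie below the dotted lines.

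Array-wide limits set how these signals were read. A probe set counted as above the signal rule where the brighter of its signals was no lower than the median of the array it came from, which was 72.7 on the tumor side and 69.0 on the control side. The other limit was the brightest probe set for trp, a bacterial transcript, with 4.63 on the tumor-side and 5.39 on the control-side array, and no fold was read against a signal at or below it. Of the 9 probe sets, 6 were above the signal rule, which were 3 of 4 for Asic1, both for Asic2 and the single one of Asic3. Among 9691 genes above the signal rule the median log2 ratio, tumor over control, was 0.08. Log2 ratios of Asic1, Asic2 and Asic3 on their brightest probe sets are also given relative to it. As a scale for its size, each log2 ratio was set beside the central 95% of log2 ratios of the 500 probe sets nearest in mean signal, a range that holds noise and real differences between these samples alike. A further measure was how far probe sets for 1 gene scattered at a like signal, as an SD.

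Asic3 (probe set 1370839_at) had a log2 ratio of -0.03, a difference of -0.11 from the median of genes above the signal rule. The 500 probe sets nearest to it ran from -0.09 to 0.28, that is from 0.937 to 1.21 times, a narrow range at a high signal. The SD among probe sets for 1 gene was 0.084 at this signal, over 210 genes. Asic3 thus lay on the low side of the array median by slightly more than this SD, yet within the range of its neighbours, and it has no other probe set to set beside it.

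Asic1, which carries fast acid-evoked currents in central neurons as well as in SNs, was measured by 4 probe sets. The brightest, 1371045_at, had a log2 ratio of 0.02, a difference of -0.06 from the median of genes above the signal rule. Its nearest probe sets ran from -0.31 to 0.40. Quantile normalization, median centring and loess each turned the sign of its log2 ratio, the lowest value being -0.06. The next, 1392135_at, had 234 in tumor-side DRGs and 238 in control-side DRGs. Probe set 1388078_a_at had 102 in tumor-side DRGs and 112 in control-side DRGs. The remaining one, 1387555_at, below the signal rule, had 26.6 in tumor-side DRGs and 22.8 in control-side DRGs. The bright and dim probe sets of Asic1 therefore pointed both ways, 2 up and 2 down, with log2 ratios from -0.13 to 0.22, a mean of 0.02 and an SD of 0.15 (n = 4 probe sets). All 4 lay within the ranges of their nearest probe sets.

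Asic2, which tunes the acid sensitivity of the trimers it joins, was the member whose probe sets above the signal rule differed most from each other. The brighter one, 1368465_at, had a log2 ratio of -0.0037 (161 in tumor-side DRGs and 161 in control-side DRGs), with its nearest probe sets between -0.32 and 0.51. Its difference from the median of genes above the signal rule was -0.08. The other, 1371140_a_at, had 72.9 in tumor-side DRGs and 54.6 in control-side DRGs, a ratio of 1.34 (log2 ratio 0.42). It met the signal rule through the tumor side alone, at a median of 72.7. Its nearest probe sets ran from -0.60 to 0.77, so a ratio of this size was common at that signal, and the SD among probe sets for 1 gene was 0.32. The mean over both probe sets of Asic2 was 0.21.

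Asic2 is annotated with 2 start sites, 802176 bases apart, and rat transcripts from either start differ in the first part of the channel. The sources used here do not give the transcript that each probe set detects, so the difference between the probe sets cannot be assigned to a start. The windows around both starts are shown because they are the member's sequence feature that differs within the gene, 250 bases before to 50 after each start, from RefSeq (GRCr8, minus strand, chr10:67438188-67438487 for the upstream and chr10:66636012-66636311 for the downstream start). Capitals mark the TATA box (TATAAA), the CCAAT box and the GC box (GGGCGG), searched on both strands.
Asic2 upstream start: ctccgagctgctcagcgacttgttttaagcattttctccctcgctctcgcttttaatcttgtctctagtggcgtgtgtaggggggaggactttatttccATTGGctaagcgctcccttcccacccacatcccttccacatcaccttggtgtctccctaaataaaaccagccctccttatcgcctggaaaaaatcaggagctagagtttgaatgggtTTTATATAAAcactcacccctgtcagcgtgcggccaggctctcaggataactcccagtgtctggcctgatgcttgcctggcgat
Asic2 downstream start: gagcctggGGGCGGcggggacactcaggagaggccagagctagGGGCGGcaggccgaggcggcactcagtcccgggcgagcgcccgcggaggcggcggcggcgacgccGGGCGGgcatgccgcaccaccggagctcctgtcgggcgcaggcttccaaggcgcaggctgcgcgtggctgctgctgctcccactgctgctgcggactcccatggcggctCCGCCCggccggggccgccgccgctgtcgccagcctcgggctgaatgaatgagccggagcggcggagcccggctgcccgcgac
The upstream window held a TATA box on both strands, overlapping each other, and 1 CCAAT box, and had a GC content of 51%. The downstream window held neither of these and 4 GC boxes, with a GC content of 78%. Over all 33469 promoter windows of this length, 14.2% held a TATA box, 37.5% a CCAAT box and 33.1% a GC box. Windows were found for 4 of the 5 measured members, Asic4 having none in the table. Of these 5 windows, the 2 of Asic2 included, a TATA box was in 1, a CCAAT box in 2 (Gpr4 and Asic2) and a GC box in 2 (Asic1 and Asic2). The Asic3 window held none of these boxes. Such matches describe letters, and no binding was measured.

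Asic4 and Gpr4 were too dim for a comparison. Asic4, a family member that does not open to acid by itself, had 13.9 in tumor-side DRGs and 2.46 in control-side DRGs (probe set 1370206_at). The tumor-side signal was above the trp control probe sets and the control-side signal was below them. No fold is therefore given. Gpr4, known from endothelial cells, had 3.10 in tumor-side DRGs and 2.55 in control-side DRGs (probe set 1390571_at), below the trp control probe sets on both arrays. Signals as low as these do not say whether the gene is expressed in DRGs. In contrast, of 9 measured endothelial genes 6 were above the signal rule, 5 with positive ratios and 1 with a negative ratio. Their median log2 ratio was 0.22, against 0.08 over all genes above the rule. Kdr, a receptor of endothelial growth factors, had 281 in tumor-side DRGs and 245 in control-side DRGs. Flt1 was the negative one, with 66.3 in tumor-side DRGs and 71.7 in control-side DRGs.

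**Figure D2:**
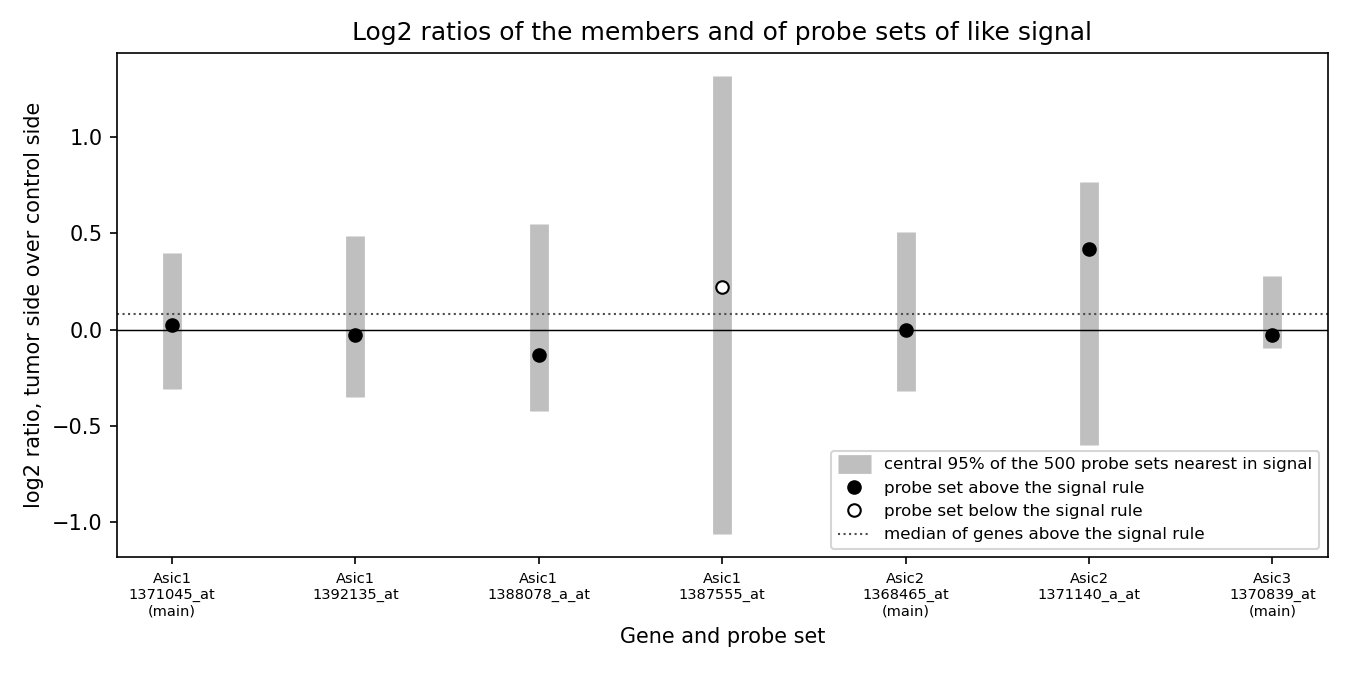
Log2 ratio, tumor over control side (vertical axis) for the 7 probe sets with both signals above the trp control probe sets (horizontal axis), filled if above the signal rule and open if below. Grey bars span the central 95% of the 500 probe sets nearest in signal and the dotted line is the median of genes above the rule, 0.08. All 7 points lie within their grey bars, which widen from Asic3 (-0.09 to 0.28) to the dim probe set of Asic1 (-1.07 to 1.32).

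Over the 3 members above the signal rule, 0 had a tumor-side signal at least 2 times higher and 0 had one at least 2 times lower, and none differed by a fold of 1.5. The background was 0.134% of genes above the signal rule at least 2 times higher and 0.186% at least 2 times lower, and 1.93% were at least 1.5 times higher or lower, so counts of 0 among 3 genes do not set the members apart from other genes. Their median log2 ratio was -0.0037, against 0.08 over all genes above the rule. Over all 5 measured members, at any signal, 1 (Asic4) was counted as at least 2 times higher and 0 as lower, where 4.31% of all measured genes were at least 2 times higher and 3.71% at least 2 times lower. This count takes signals as listed, also those below the trp control probe sets, so that it says nothing of Asic4.

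ASICs of the DRG are expressed mainly by neurons, so their ratios were also set beside SN markers. Of 10 listed SN markers 9 were measured, all above the signal rule, with a median log2 ratio of -0.01 and a range from -0.15 to 0.09. Rbfox3, a nuclear protein of neurons, had 1463 in tumor-side DRGs and 1624 in control-side DRGs. Its other probe set went the other way, with 367 in tumor-side DRGs and 350 in control-side DRGs. Uchl1, an abundant neuronal enzyme, had 3370 in tumor-side DRGs and 3166 in control-side DRGs. The summed signal of the 9 SN markers was 57535 on the tumor side and 57696 on the control side. None of them was at or below the trp control probe sets. Relative to the median of the SN markers, Asic3 was -0.02, Asic2 0.0035 and Asic1 0.03 on the log2 scale. In whole ganglia fewer SNs and less RNA per SN cannot be told apart. Other cell types of the samples differed far more. On the tumor side all 7 measured skeletal muscle genes were lower by a fold of 2 or more (summed signal 382 on the tumor side and 1231 on the control side). Of 6 measured granulocyte genes, the 3 that met the signal rule had a median log2 ratio of -1.19, and 2 of them were lower by a fold of 2 or more. The others went both ways, with Csf3r at 20.1 on the tumor side and 26.5 on the control side, Camp at 30.9 on the tumor side and 23.6 on the control side, and Mmp8 at 16.4 on the tumor side and 4.64 on the control side, below the trp control probe sets. All 3 measured erythroid genes were lower on the tumor side, with log2 ratios from -0.60 to -0.36. Of 6 bone and osteoclast genes that met the rule, 3 were higher by a fold of 2 or more, beside 0.134% of all genes above it. Their part in the ASIC values was not tested. The marker lists of macrophages, satellite glia and Schwann cells held no gene above the rule that differed by a fold of 1.5. Over all genes above the rule 1.93% did.

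Other channels and receptors that respond to protons were read from a list of 9 genes, of which 7 were measured and 4 were above the signal rule. None of the 4 differed by a fold of 1.5, beside 1.93% of all genes above the rule. Their median log2 ratio was -0.12, with 1 positive and 3 negative ratios. Over all genes above the rule 6867 of 9691 ratios were positive. Trpv1, the capsaicin receptor that also opens to acid, had 916 in tumor-side DRGs and 996 in control-side DRGs (log2 ratio -0.12, nearest probe sets from -0.14 to 0.31). Its other probe set above the rule had 283 in tumor-side DRGs and 306 in control-side DRGs. A further, dim one had 3.12 in tumor-side DRGs, below the trp control probe sets, and 8.93 in control-side DRGs. Pacc1, a chloride channel opened by protons, had 244 in tumor-side DRGs and 280 in control-side DRGs (log2 ratio -0.20). Kcnk1, a leak potassium channel whose selectivity shifts in acid, had 263 in tumor-side DRGs and 287 in control-side DRGs. P2rx3, an ATP receptor channel of nociceptors whose currents acid modulates, was the one with a positive ratio, with 2292 in tumor-side DRGs and 2107 in control-side DRGs (log2 ratio 0.12). Each of the 4 lay within the range of its nearest probe sets, as did Asic3. Kcnk3 and Kcnk9, leak channels that acid closes, and P2rx2 were below the rule. Their brightest probe sets had log2 ratios of -0.39, -0.51 and -0.22. A second probe set of Kcnk3 had a log2 ratio of -1.56. The remaining one of Kcnk3 had 19.8 in tumor-side DRGs and 1.49 in control-side DRGs, below the trp control probe sets. The other probe sets of P2rx2 had log2 ratios of -0.32 and -2.39, the last from 4.72 in tumor-side DRGs and 24.7 in control-side DRGs. No probe set was named for the proton channel Otop1.

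Of 12 listed partners and modulators of ASICs, 11 were measured and 8 were above the signal rule, 6 with positive and 2 with negative log2 ratios. Their median log2 ratio was 0.11, against 0.08 over all genes above the rule, where 6867 of 9691 ratios were positive. After median centring the median of the 8 was 0.03. None of the 8 differed by a fold of 1.5, beside 1.93% of all genes above the rule. Below it, Pdyn, Npff and Akap5 had log2 ratios of 0.92, 0.52 and -0.68 on their brightest probe sets. A second probe set of Pdyn had a log2 ratio of 1.25. All of these dim values lay within the ranges of their nearest probe sets. Dlg4, a scaffold protein of synapses, had 204 in tumor-side DRGs and 146 in control-side DRGs on its brightest probe set (log2 ratio 0.48, outside the -0.29 to 0.43 of its nearest probe sets), and 137 in tumor-side DRGs and 134 in control-side DRGs on the other one above the rule. Those probe sets of Dlg4 thus did not give the same size of difference. Stom, which encodes the membrane protein stomatin, a modulator of ASIC gating, had 165 in tumor-side DRGs and 136 in control-side DRGs. Nherf1, a scaffold that binds Asic3, had 538 in tumor-side DRGs and 595 in control-side DRGs. Stoml1, a relative of stomatin, had 495 in tumor-side DRGs and 450 in control-side DRGs. S100a10, an adaptor that helps Asic1 to the cell surface, had 9656 in tumor-side DRGs and 9369 in control-side DRGs, and Pick1, which binds Asic1 and Asic2, had 127 in tumor-side DRGs and 128 in control-side DRGs. These last values, chosen after they were seen, lay within 0.05 of 0 on the log2 scale.

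The G protein relay of proton-sensing receptors held 11 listed genes, of which 9 were measured, all above the signal rule. Their median log2 ratio was 0.14, with a range from -0.15 to 0.29 and 5 positive and 4 negative ratios. Over all genes above the rule the median was 0.08, and 6867 of 9691 ratios were positive. After median centring the median of the list was 0.06. Gnaq, the alpha subunit that leads to phospholipase C, had 90.1 in tumor-side DRGs and 73.5 in control-side DRGs. Arhgef1, which passes the signal of G12 and G13 to RhoA, had 83.6 in tumor-side DRGs and 73.7 in control-side DRGs, and Gna12, the alpha subunit of G12, had 1207 in tumor-side DRGs and 1067 in control-side DRGs. Gna11, a close relative of Gnaq, was the lowest, with 64.3 in tumor-side DRGs and 71.5 in control-side DRGs. Of these signals only the control-side one reached the median of its array, which was 69.0, against 72.7 on the tumor side. The low end of the range therefore rests on a gene near the limit. When both signals had to reach the array medians, the median log2 ratio of the list was still 0.14. Gnas, the alpha subunit that raises cyclic AMP, had 8497 in tumor-side DRGs and 8637 in control-side DRGs on a probe set open to cross-hybridization. None of the 9 differed by a fold of 1.5, beside 1.93% of all genes above the rule. Of the proton-sensing members, Gpr4 was too dim for a comparison, and Gpr65 and Gpr132 had no named probe set.

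The closest relatives of the ASICs, the 3 subunits of the epithelial sodium channel (ENaC) and Asic5, were all below the signal rule. Scnn1b had 42.6 in tumor-side DRGs and 17.7 in control-side DRGs (log2 ratio 1.27, with its nearest probe sets from -1.02 to 1.11). Scnn1g had 27.3 in tumor-side DRGs and 12.8 in control-side DRGs (log2 ratio 1.10, within the -1.64 to 1.46 of its nearest probe sets). A second probe set of Scnn1g went the other way, with 1.81 in tumor-side DRGs and 7.47 in control-side DRGs, the tumor-side signal being below the trp control probe sets. Scnn1a had 18.6 in tumor-side DRGs and 13.8 in control-side DRGs, and Asic5 was below the trp control probe sets on both arrays. Thus 2 of these 4 dim genes, named after their values were seen, were at least 2 times higher on their brightest probe sets, beside the 4.31% over all measured genes, and 0 were at least 2 times lower. Of the 613 genes behind that share, 13 were above the signal rule, so the share among dim genes is higher than 4.31%.

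**Figure D3:**
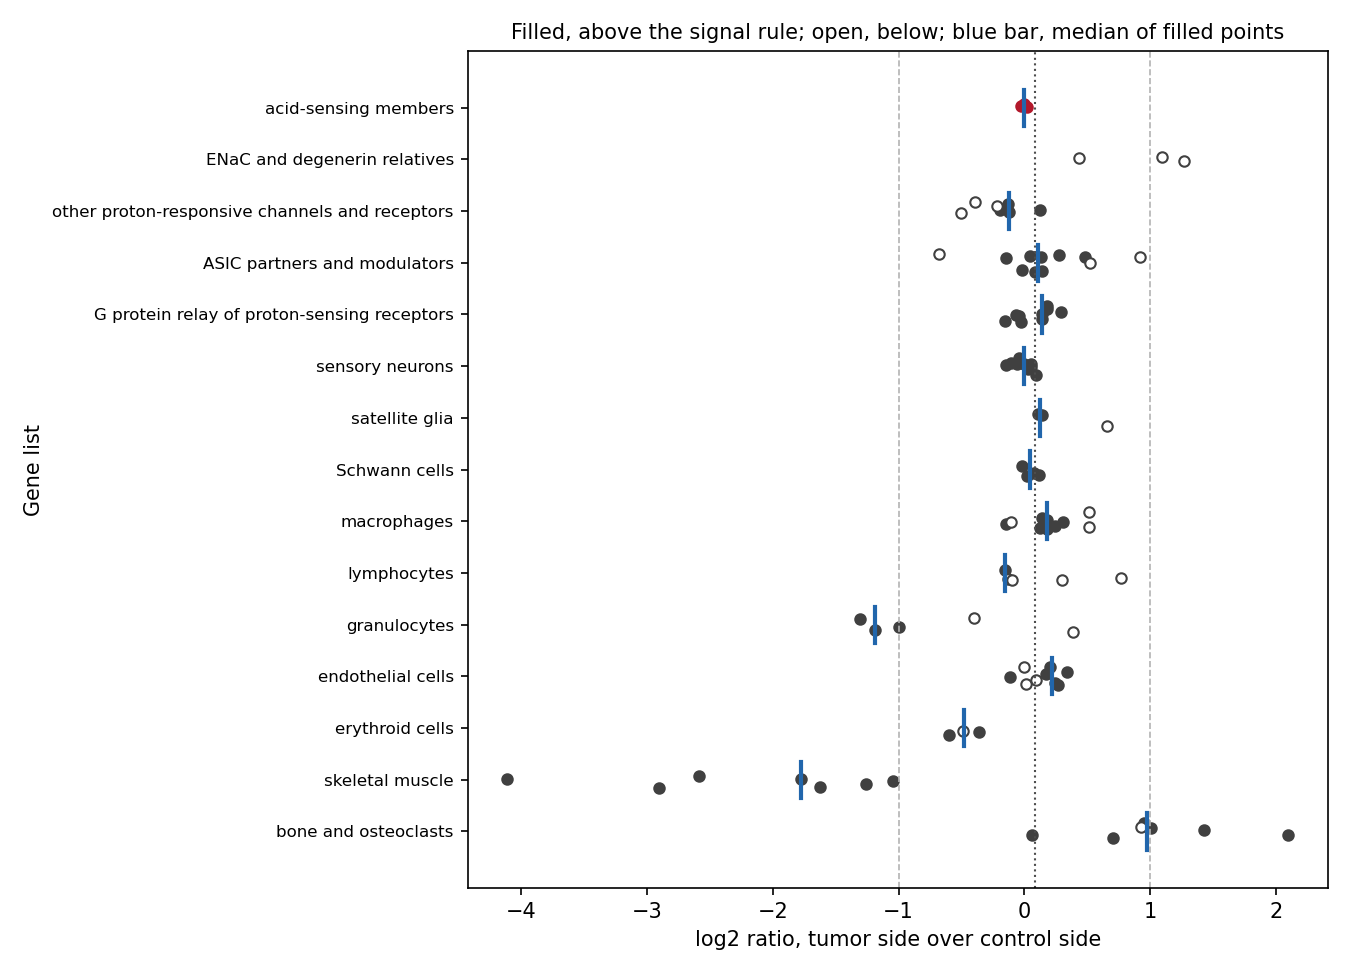
Log2 ratio, tumor over control side (horizontal axis) for the acid-sensing members (red), their related gene lists and marker lists of cell types (vertical axis), 1 point per gene on its brightest probe set where both signals were above the trp control probe sets, filled above and open below the signal rule. Blue bars are medians of the filled points, the dotted line is the median of genes above the rule (0.08) and dashed lines mark a fold of 2. The filled points of the members sit between -0.03 and 0.02, while skeletal muscle genes lie lowest (median -1.78) and bone and osteoclast genes highest (median 0.98).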

How the data were processed

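RNA of tumor-side and control-side DRGs (100 ng each) was hybridized to Affymetrix rat genome arrays. The deposited signal intensity values, on a linear scale, were made by the authors with MAS 5.0 at default settings and cover 31099 probe sets, 57 of which are controls. Sources used here do not give the scaling, and detection calls were not used. Log2 ratios of tumor side over control side were computed without a pseudocount. The annotation gives 1 symbol for 20826 probe sets, several for 436 and none for 9780. Symbols were checked through gene identifiers against RefSeq (GRCr8), where 20764 of 20832 matched. A gene was represented by its brightest probe set by mean log2 signal. The SD between probe sets of the same gene used probe sets within a fold of 2 of the member's mean signal.

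No test was possible with 1 array for either side, and the number of arrays limits the precision. Named were all members with every probe set, Trpv1, and up to 4 genes of each related list with the largest log2 ratio in size above the signal rule. Further genes were picked once their values had been seen. The members and lists were chosen with earlier results of these data known. Results were recomputed with median centring, quantile normalization, loess (span 0.3), a pseudocount of 11.1 (percentile 20 of signals), the mean over all probe sets, other signal filters, cross-hybridizing probe sets left out, and a fold of 1.5 or 3. On simulated data with known folds the calculation was tested. Tools were pandas 2.3.3 and numpy 2.4.6 under Python 3.11.15, with loess by statsmodels 0.14.6 and plots by matplotlib 3.10.9.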

Additional observations from a re-analysis of the deposited data

How the results depend on the processing

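Of 14 log2 ratios of Asic1, Asic2 and Asic3 under settings that could change them, 11 stayed within the SD among probe sets for 1 gene and 3 did not. Asic3 was -0.12 after quantile normalization and -0.11 after loess, both of which bring the array median to about 0. With the deposited values its difference from the median of genes above the signal rule was -0.11. Asic2 was 0.21 with the mean over both its probe sets. Of 22 counts of members past the fold, 21 did not change, some of which could not by construction. Without the signal filter 1 member, Asic4, was counted as at least 2 times higher, on a control-side signal below the trp control probe sets. Of 36 list medians 35 moved by less than this SD at the list's signal. The SD is one between single probe sets, a wide allowance for a median over several genes. Within it, loess took the median of the ASIC partners from 0.11 to 0.02 and that of the G protein relay from 0.14 to 0.05. The median of the other proton-responsive genes became 0.00047 with the filter at percentile 75, which leaves fewer genes. No median was taken for the ENaC relatives, of which none was above the signal rule. No paired analysis was possible because either side has a single array. Low signal limits the reading of Asic4 and Gpr4.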
